A study of Drosophila melanogaster with 18 samples.

Results

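The proteasome subunit genes are the 48 protein-coding genes of Drosophila melanogaster whose FlyBase symbol begins with Prosalpha, Prosbeta, Rpn or Rpt followed by a digit, out of 17611 genes in the deposited count table. They were found by their gene identifiers and symbols, not by any measured value. Of the 48, 32 encode the canonical subunits and 16 are paralogue copies of them, marked in the symbol by an R or T. The lid subunit gene Sem1 does not carry these prefixes and is described with the regulators. Transcripts were measured by sequencing of polyadenylated RNA from ovaries of 2 inbred wild-type genotypes, HP ("high plasticity") and LP ("low plasticity"), with ovary stages 1 to 7 given as the tissue. Each line was sampled in diapause at 12 °C, as persistently reproductive females at 12 °C, and as an age control 28 days old at 25 °C. Every group had 3 libraries, numbered as biological replicates, and no source used here gives how many flies went into each or the age of the 12 °C flies. Age controls differed from both 12 °C groups in temperature, and each genotype is represented by a single line. A difference between lines is thus a difference between these 2 lines.

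The 26S proteasome degrades proteins that carry ubiquitin chains. Its 20S core is a barrel of alpha and beta rings, in which the beta subunits Prosbeta1, Prosbeta2 and Prosbeta5 carry the caspase-like, trypsin-like and chymotrypsin-like proteolytic sites. Its 19S cap has a base, made of the Rpt ATPases that unfold the substrate and non-ATPase subunits that bind ubiquitin, and a lid of Rpn subunits with the deubiquitinase Rpn11. In the Drosophila testis several subunits have a second copy that is used during spermatogenesis. Reproductive diapause in this fly is induced by short days and cold, and the ovary then halts before yolk is deposited.

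The libraries held 14352846 to 21343992 counts. Of the 8 germ-line marker genes all were counted in every library, with vas, a germ-line helicase, at group means of 242 to 302 CPM (counts scaled to a common library size). Eggshell genes, made by follicle cells of late follicles, took 0.0337% to 0.0447% of the counts in HP diapause, 0.141% to 0.232% in HP reproductive and 0.573% to 1.04% in HP age-control libraries. In LP they took 0.119% to 0.387%, 0.511% to 0.615% and 1.33% to 1.80%, with LP diapause replicate 2 at 0.387%, apart from its group. LP age control replicate 2 stood apart by testis genes, which are described with the paralogue copies.

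The canonical genes were among the abundant transcripts of every group and lay close to each other. Levels are given as CPM scaled by trimmed mean of M-values (TMM) factors, which hold the bulk of genes level between libraries, and are compared between genes only per kilobase of exon. Of the 48 genes 33 passed the filter on low counts, 31 canonical genes with 49238 to 140839 counts over all libraries and the copies Rpt3R and Rpt6R. The mean level per length of the 31 over the groups ran from 90.1 CPM per kilobase in Rpn13 to 225 in Prosalpha3, a span of 2.49-fold, with a median of 159. The median over all 9037 tested genes was 15.98 CPM per kilobase, and 91.3% of these genes lay below Rpn13.

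The 20S genes were the higher group per length and the 19S genes the lower. Among the 7 beta genes the level ran from 173 CPM per kilobase in Prosbeta3, which has no catalytic site, to 208 in Prosbeta5, the chymotrypsin-like subunit. The catalytic Prosbeta1 and Prosbeta2 stood at 191 and 192. Among the 6 tested alpha genes, which build the gated outer rings, the range was 163 in Prosalpha6 to 225 in Prosalpha3. The 6 ATPase genes ran from 128 CPM per kilobase in Rpt3 to 179 in Rpt1. Among the base genes without ATPase the ubiquitin receptor Rpn13 was lowest (90.1) and the ubiquitin receptor Rpn10 highest (145), with Rpn1, the docking site of shuttle factors, at 119. Among the 8 lid genes Rpn9 had 116 and the deubiquitinase Rpn11 had 168. The 20S median was 192 and the 19S median 134 CPM per kilobase, and the levels of the groups overlapped, since Rpt1 and Rpn11 lay above Prosalpha6.

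**Figure D1:**
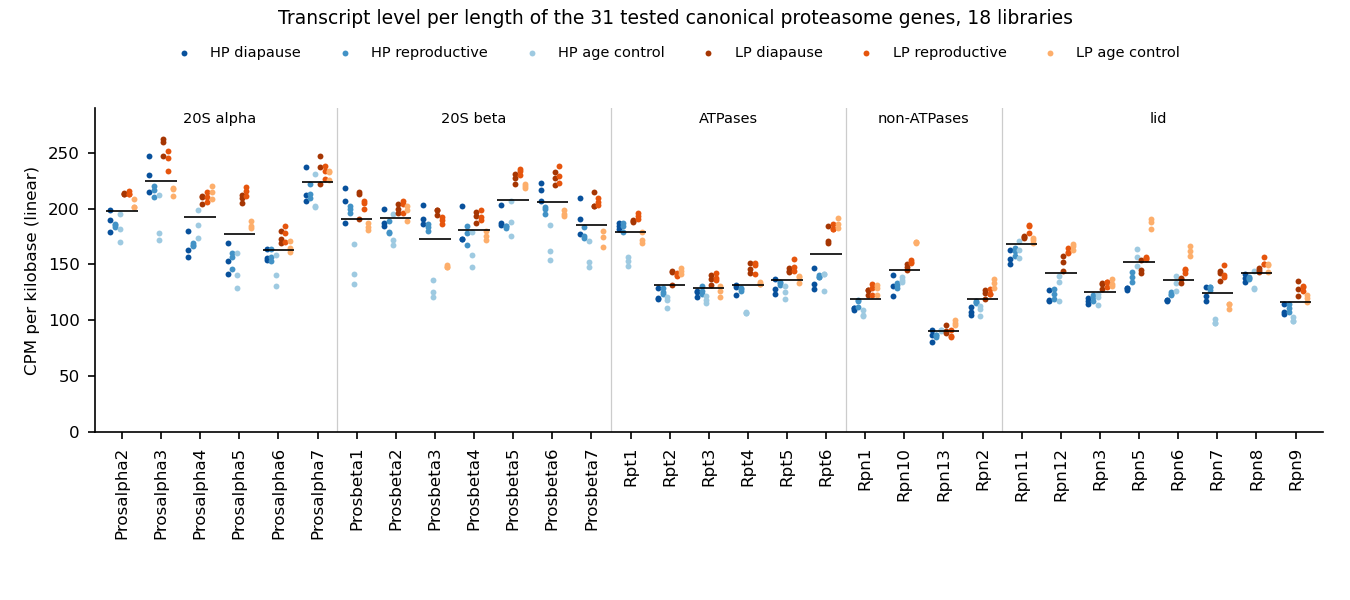
Level per length of the 31 tested canonical genes in CPM per kilobase (linear axis), by subcomplex; each point is a library, coloured by group, and each black line is the mean of the 6 group means. All genes lie between 80.8 and 263 in every library, and the points of LP libraries lie mostly above those of HP libraries.

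The alpha gene Prosalpha1 is the exception in the table. It had 77 counts over the 18 libraries, 1 to 8 in each, while the other 6 alpha genes had 2178 to 6270 in each library. Its copy Prosalpha1R had 85 counts, 1 to 9 in each. The genes lie on the same strand of 2R, Prosalpha1 at 7827303 to 7828678 and Prosalpha1R at 7830413 to 7831771, with 1734 bases between them (coordinates of the deposited table, which match annotation BDGP6.54 for all 48 genes). No source used here says how reads that match several places were counted, so reads of a gene and its copy could be split or lost. The counts of these genes are therefore uncertain, neither gene passed the filter, and no level is drawn from them. Of all members 16 share exon bases with another gene, only Rpt6 over more than 10% of its exon bases. It shares 13.0% with CG1801 on the opposite strand, which had 5538 counts in all beside 77624 for Rpt6.

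No proteasome gene passed the test between diapause and reproductive ovaries, both from 12 °C, in either line, and the 95% intervals of the canonical genes stayed within −0.22 and 0.24 on the log2 scale. Prosbeta5 stood at 211, 232 and 213 in diapause, 209.8, 210.3 and 208 in reproductive and 199.9, 235 and 214 in age-control libraries of HP, in CPM. In LP it stood at 259, 263 and 253 in diapause, 268, 266 and 262 in reproductive and 250.4, 249 and 253 in age-control libraries. Prosbeta5 libraries of HP diapause (lowest 210.6) and HP reproductive ovaries (highest 210.3) barely parted, and the ranges of LP diapause and reproductive libraries overlapped. Prosbeta2, the trypsin-like subunit, had 194, 206 and 191 CPM in HP diapause against 196, 184 and 185 in HP reproductive libraries. In LP it had 211, 207 and 203 against 213, 211 and 203. These ranges overlapped in both lines. Rpn1 had 333, 336 and 339 against 356, 341 and 358 CPM in HP, where the diapause libraries were all lower, and 374, 387 and 387 against 393, 374 and 404 in LP, where they overlapped.

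By edgeR's quasi-likelihood test with Benjamini-Hochberg adjustment over all 9037 genes, 0 of the 33 members changed in HP and 0 in LP, where 0.852% and 1.45% of all genes were called at an adjusted p under 0.05. DESeq2 also called 0 in each line. At an unadjusted p under 0.05 edgeR had 2 members in HP and 0 in LP. Fold changes of the 31 canonical genes (diapause over reproductive, log2) ran from −0.11 in Rpn5 to 0.12 in Prosbeta6 in HP, and from −0.10 in Rpn12 to 0.07 in Prosalpha3 in LP. Their SEs were 0.04 to 0.07, and their 95% intervals together spanned −0.21 to 0.24 in HP and −0.22 to 0.21 in LP.

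The signs of these uncalled values are given as a description. In HP 12 of the 13 tested 20S genes lay above 0 and 14 of the 18 19S genes below 0, with medians of 0.05 and −0.04, where 50.3% of all genes lay above 0. In LP 8 of 13 and 17 of 18 lay below 0, with medians of −0.01 and −0.03, where 52.1% of all genes lay above 0. Libraries did not overlap for 3 genes higher in HP diapause (Prosbeta3, Prosbeta5 and Prosbeta6) and 4 lower (Rpn1, Rpn2, Rpn5 and Rpn6), 7 of 33 in all. Over all genes 13.7% were higher and 14.4% lower in this way, so the members' share was near the background. In LP 1 gene was higher (Prosbeta3) and 7 were lower (Rpt1, Rpn5, Rpn6, Rpn8, Rpn10, Rpn11 and Rpn12), beside 13.4% and 12.7% of all genes.

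Over both lines together 0 of 33 members were called by edgeR, where 9.46% of all genes were, and 2 had an unadjusted p under 0.05. The smallest p belonged to Rpn5, a structural subunit of the lid (−0.10, SE 0.03, adjusted p = 0.071), followed by the lid scaffold Rpn6 (−0.08, SE 0.03, adjusted p = 0.13). DESeq2, total counts in place of TMM, and a fit to the 12 libraries of these groups each called 2 members lower, Rpn5 and Rpn6 in each case. Rpn5 was lower in diapause in 3 of 3 HP and 3 of 3 LP libraries than in every reproductive library of its line. It had 241, 244 and 245 against 272, 263 and 255 CPM in HP and 275.0, 292 and 269 against 297, 294 and 295 in LP. Rpn5 was picked by its p in this same comparison, so the parting of its libraries adds no support. In each line taken alone, 14.4% of all genes in HP and 12.7% in LP were lower without overlap. Whether the diapause response differed between lines was tested directly, and 0 members were called by edgeR or DESeq2, with 1 at an unadjusted p under 0.05. Of all genes edgeR called 0% there, so this test made no call anywhere.

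Against age controls at 25 °C, single subunits of the 12 °C ovaries parted in both directions. Prosbeta3, a structural beta subunit, was higher at 12 °C, and the lid genes Rpn5 and Rpn6 and the ATPase copy Rpt3R were lower. These 4 were called in both lines and in both 12 °C groups, with TMM and with total counts alike. No other member was called in the same direction in all 4 comparisons under both scalings. The calls of Rpn6 in HP and of Rpt3R in LP reproductive ovaries were lost in some alternatives, as given below. In bulk ovaries, fewer cells of a type and less RNA per cell cannot be told apart.

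Prosbeta3 (3R, 9005313 to 9006226) stood at 170.0, 186 and 174 in diapause, 169.9, 168 and 165 in reproductive and 111, 124 and 114 in age-control libraries of HP, in CPM. In LP it stood at 181, 182 and 178 in diapause, 176, 174 and 169.9 in reproductive and 135, 135 and 137 in age-control libraries. All 12 cold libraries lay above the 6 age controls, whose highest value was 137. Its log2 change over the age control was 0.60, SE 0.05, adjusted p = 1.7e-09 in HP diapause and 0.52, SE 0.05, adjusted p = 1.5e-08 in HP reproductive ovaries. In LP it was 0.41, SE 0.05, adjusted p = 2.4e-07 in diapause and 0.35, SE 0.05, adjusted p = 2.4e-06 in reproductive ovaries. With total counts the LP values were 0.18 and 0.17 and still passed (adjusted p = 0.0023 and 0.0051).

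Rpn5 (3R, 5789493 to 5791569) had 281, 297 and 310.2 CPM in the HP and 362, 344 and 356 in the LP age controls, above every 12 °C library of the same line given before. It was lower than in the age control in HP diapause (−0.28, SE 0.05, adjusted p = 2.6e-05) and HP reproductive ovaries (−0.17, SE 0.05, adjusted p = 0.0038). In LP the changes were −0.35 in diapause and −0.26 in reproductive ovaries (adjusted p = 1.8e-06 and 6.1e-05). Rpn6, a lid scaffold that in yeast bridges cap and core, had 229.9, 229 and 231 in diapause, 243, 238 and 239.9 in reproductive and 246, 259.9 and 272 in age-control libraries of HP. Its LP levels were 260.0, 268 and 266 in diapause, 277, 284 and 281 in reproductive and 315, 307 and 323 in age-control libraries. Here too every 12 °C library lay below the age controls of its line. The smallest of its changes, −0.11 in HP reproductive ovaries (SE 0.04, adjusted p = 0.036), lost its call in 7 of 13 alternatives, in which it ran from −0.22 to −0.085.

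The counts of calls were below the share of all genes called. In HP diapause 15 of 33 members were called against the age control, 11 higher and 4 lower, where 68.6% of all genes were called, 34% higher and 34.7% lower. In HP reproductive ovaries 16 were called, 12 higher and 4 lower (all genes 65.3%, with 32.2% higher and 33.1% lower). In LP diapause 16 were called, 10 higher and 6 lower (all genes 71.9%, with 36.6% higher and 35.3% lower). In LP reproductive ovaries 16 were called, again 10 and 6 (all genes 67.6%, with 33.9% higher and 33.7% lower). The 6 lower in LP include Rpt6R, which passed the filter only through the LP age controls, and of the canonical genes alone 10 were higher and 4 lower in each LP comparison. With total counts in place of TMM the balance turned, to 8 higher and 14 lower, 6 and 9, 1 and 24, and 2 and 17 in that order. The median change of all genes then shifted from between 0.00 and 0.03 to −0.13, −0.10, −0.20 and −0.19. The medians of the 31 canonical genes were 0.06, 0.10, 0.04 and 0.08 with TMM and −0.09, −0.01, −0.18 and −0.10 with total counts. The sign of the family's median against age controls thus turned with the scaling, as did that of all genes. Without HP reproductive replicate 3, and likewise without HP age control replicate 3, 10 members in place of 16 were called in HP reproductive ovaries.

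Among the 20S genes Prosbeta1, Prosbeta6, Prosbeta7 and Prosalpha3 followed Prosbeta3 in HP. Prosbeta1, the caspase-like subunit (2R, 16013805 to 16014787), had 159, 186 and 176 in diapause, 172, 169.8 and 167 in reproductive and 113, 143 and 120.5 in age-control libraries of HP, with the age controls lowest and apart. Its LP levels were 183, 182 and 163 in diapause, 176, 175 and 169.9 in reproductive and 157, 159.6 and 154 in age-control libraries, closer together but still without overlap. It was higher in HP diapause (0.47, SE 0.07, adjusted p = 8.3e-06) and HP reproductive ovaries (0.44, SE 0.07, adjusted p = 2.5e-05). In LP its value of 0.17 in diapause passed with TMM (adjusted p = 0.044), was −0.06 with total counts (adjusted p = 0.43) and lost its call in 10 of 13 alternatives. Prosbeta6 changed by 0.37 and 0.25 in HP diapause and reproductive ovaries, Prosbeta7 by 0.30 and 0.18, and Prosalpha3 by 0.30 and 0.20, all called with TMM. With total counts Prosbeta7 and Prosalpha3 kept their calls in HP diapause but not in HP reproductive ovaries. In LP these 3 genes were called at 0.18 to 0.25 with TMM and lay between −0.02 and 0.06 with total counts, with no call. The other catalytic subunits did not pass in any of the 4 comparisons with TMM, with Prosbeta2 at 0.03 to 0.10 and Prosbeta5 at −0.05 to 0.08, and all of these values lay below 0 with total counts. Prosalpha4 was lower in HP diapause (−0.16) and reproductive ovaries (−0.15) under both scalings, and was not called in LP (−0.04 and −0.03) with TMM.

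Of the cap genes, Rpn7, a structural lid subunit (3R, 22460662 to 22462054), stood furthest above the age controls. It had 164, 181 and 169.7 in diapause, 180.4, 178 and 180.3 in reproductive and 136, 140.4 and 136 in age-control libraries of HP, in CPM. In LP it had 201, 189 and 199 in diapause, 209, 193 and 196 in reproductive and 159.8, 153 and 160.1 in age-control libraries. No cold library overlapped the age controls of its line. Its changes were 0.32 and 0.38 in HP diapause and reproductive ovaries and 0.31 and 0.34 in LP (SE 0.05 each, largest adjusted p = 8.3e-06). With total counts the LP diapause value was 0.08 and did not pass (adjusted p = 0.11), while the other comparisons kept the call. The ATPase genes Rpt1 and Rpt4 were called higher in all 4 comparisons with TMM, at 0.26 to 0.27 in HP and 0.12 to 0.16 in LP, and were below 0 in LP with total counts, where Rpt1 was called lower in LP diapause (−0.11, adjusted p = 0.033). Rpn10, a ubiquitin receptor, fell in LP diapause and reproductive ovaries (−0.20 and −0.16) under both scalings, and was not called in HP (−0.06 and −0.05) with TMM. Rpn13 fell in LP reproductive ovaries (−0.16, SE 0.05, adjusted p = 0.0076) and Rpn12 in LP diapause (−0.14, SE 0.06, adjusted p = 0.049). Rpn1 passed only in HP reproductive ovaries (0.12, SE 0.05, adjusted p = 0.025), and was 0.01 there with total counts. Rpn11 passed in none with TMM, at −0.07 to 0.09, and was below 0 in all 4 with total counts.

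**Figure D2:**
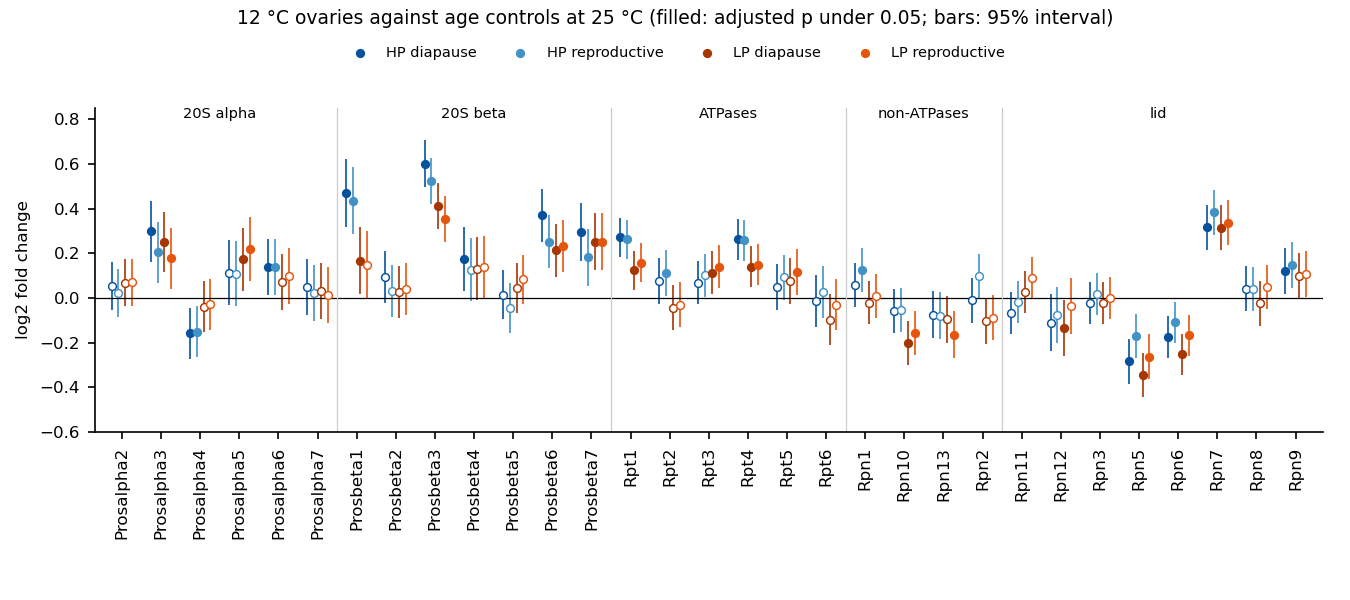
Log2 fold change of each tested canonical gene in the 12 °C groups over the age control of the same line, with TMM scaling; bars are 95% intervals and filled points have an adjusted p under 0.05. Prosbeta3 lies highest and Rpn5 lowest in all 4 comparisons; with total counts the medians shift down as given in the text.

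The lines' responses to the 12 °C states against age controls were compared directly. Of the members 1 was called by edgeR, Prosbeta1 in diapause, whose LP change was smaller than its HP change by 0.30 (−0.30, SE 0.10, adjusted p = 0.043), where 18.4% of all genes were called. This call was lost in 10 of 19 alternatives, in which the value ran from −0.40 without HP age control replicate 2 (adjusted p = 0.0014) to −0.23 without HP age control replicate 1 (adjusted p = 0.11). In reproductive ovaries 0 members passed (16.6% of all genes), with Prosbeta1 at −0.29, SE 0.10, adjusted p = 0.059 and 3 members at an unadjusted p under 0.05, while DESeq2 called 3, Prosbeta1, Prosbeta3 and Rpn2.

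A comparison of core and cap within each library needs no scaling between libraries. The median log2 CPM of the 18 tested 19S genes exceeded that of the 13 tested 20S genes, without correction for length, by 0.05, 0.01 and 0.03 in the HP diapause libraries. The difference was 0.10, 0.11 and 0.14 in HP reproductive and 0.28, 0.17 and 0.24 in HP age-control libraries, so that these 3 groups did not overlap. In LP it was 0.05, 0.16 and 0.16 in diapause, 0.13, 0.13 and 0.16 in reproductive and 0.32, 0.27 and 0.29 in age-control libraries. The LP 12 °C groups overlapped each other, with diapause replicate 1 lowest, and all lay below the age controls. The measure was chosen after the values were seen and was not tested, and with 3 libraries against 3 an exact permutation test could not go below 0.10. The share of eggshell transcripts rose across the same groups, from 0.0380% ± 0.00585 in diapause to 0.767% ± 0.240 in age controls of HP and from 0.208% ± 0.154 to 1.60% ± 0.243 in LP (SD, n = 3). Muscle markers went from 0.190% ± 0.0107 in diapause to 0.0782% ± 0.00752 in age controls of HP and from 0.171% ± 0.0174 to 0.131% ± 0.0169 in LP. Of these markers Tm1 moved little, from 483 to 461 CPM in HP and from 512 to 521 in LP. Each other gene of the list was lower in the age controls of both lines, with Mhc going from 231 to 42.5 in HP and from 207 to 96.4 in LP. Follicle cell markers went from 0.0499% ± 0.00264 to 0.0336% ± 0.00137 in HP and from 0.0475% ± 0.00228 to 0.0243% ± 0.00362 in LP. Haemocyte markers went from 0.0211% ± 0.00331 to 0.0105% ± 0.00115 in HP and from 0.0109% ± 0.00100 to 0.00877% ± 0.00129 in LP, and fat body markers from 0.000168% ± 3.72e-05 to 0.00308% ± 0.000156 in HP and from 0.00168% ± 0.00210 to 0.00279% ± 0.00139 in LP. In the haemocyte list Ppn, Pxn and srp fell in both lines, while PPO2 rose from 3.04 to 10.9 CPM in HP and Hml from 2.19 to 2.42 in LP. The part of these shares in the values against age controls was not tested.

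**Figure D3:**
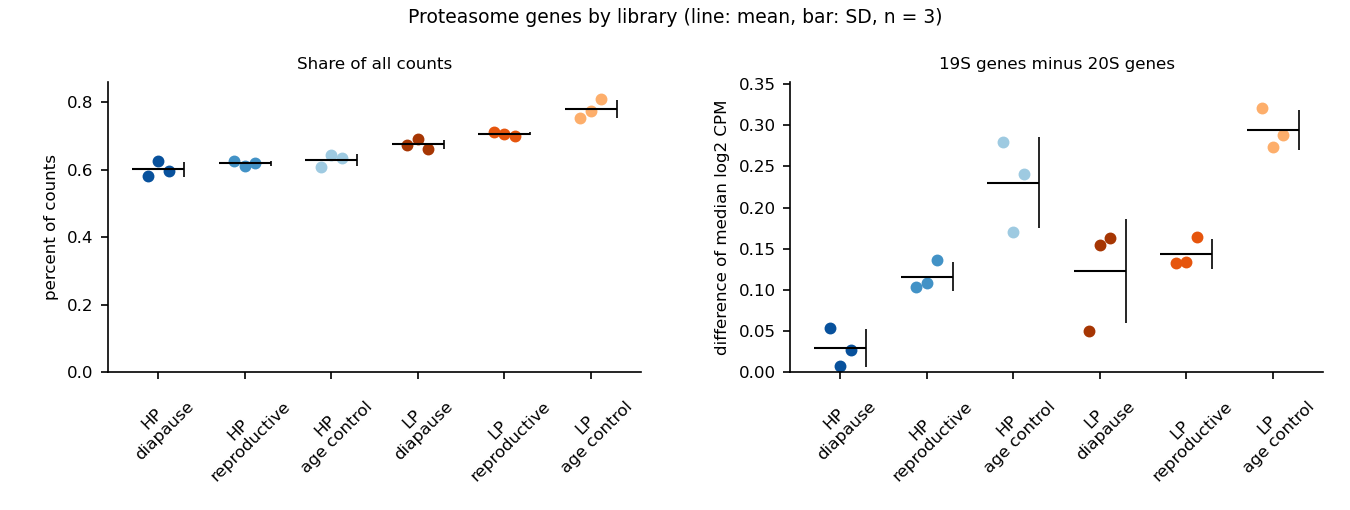
Left, percent of all counts that fell on the 48 genes; right, median log2 CPM of the tested 19S genes minus that of the tested 20S genes, a value free of scaling between libraries. Each point is a library, lines are means and bars SDs (n = 3); the LP groups lie above the HP group of the same state on the left, and the age controls lie highest within each line on the right.

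The LP line had more proteasome transcript than the HP line in every state. All 33 tested members had a fold change above 0 in diapause, in reproductive and in age-control ovaries, where 49.4% to 51.6% of all genes did. In diapause 21 of 33 were called higher (17.4% of all genes), in reproductive ovaries 25 (18.4%) and in age controls 27 (19.9%). Rpt6R, which passed the filter through the LP age controls alone, is among these 33 and in the counts called for diapause and for age controls. Of the 31 canonical genes alone, 19, 24 and 25 were called higher. Of the members 0 were called lower in any state, where 15.2%, 16.7% and 21.9% of all genes were. LP libraries lay wholly above HP libraries for 25, 30 and 25 of the 33 members, beside 24.3%, 27.8% and 22.7% of all genes. Rpt6R is again counted in diapause and in age controls. Of the 33 members 17 were called higher in all 3 states, 51.5% of them beside 7.87% of all genes. These shares of all genes are not matched for level or for spread between replicates, which was smaller in the members, as given below. Members also moved together within some libraries, so their calls are not separate observations. The median of the 31 canonical genes was 0.16 (log2) in diapause, 0.17 in reproductive and 0.21 in age-control ovaries, and that of all genes 0.01, 0.01 and 0.00. With total counts, 21, 25 and 33 members were called higher and 0 lower, and no member changed direction.

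The share of all counts on the 48 genes shows the same difference without TMM. It was 0.601% ± 0.0234 in HP and 0.675% ± 0.0139 in LP diapause, 0.619% ± 0.00830 and 0.706% ± 0.00493 in reproductive, and 0.630% ± 0.0181 and 0.779% ± 0.0274 in age-control ovaries (SD, n = 3 each). No LP library overlapped the HP libraries of its state, with 0.627% the highest in HP diapause and 0.663% the lowest in LP diapause. The ratio of LP to HP was 1.12, 1.14 and 1.24. Markers of germ line took a like share in both lines in diapause (0.305% ± 0.0186 in HP and 0.309% ± 0.0125 in LP), a smaller share in LP reproductive (0.331% ± 0.00355 against 0.315% ± 0.00816) and in LP age-control ovaries (0.296% ± 0.0217 against 0.259% ± 0.0103). Within this list orb, the most abundant, had 1420 and 1216 CPM in HP and LP reproductive ovaries and 867 and 545 in age controls. The genes aub, osk and piwi were also lower in LP in both states, piwi only slightly in reproductive ovaries (329 and 328). The genes nanos, otu and bam were higher in LP in both. Levels of vas were higher in LP reproductive (242 and 297) and lower in LP age-control ovaries (262 and 248). Eggshell shares were higher in LP in each state, as given before. In reproductive ovaries muscle markers took 0.162% ± 0.00530 in HP and 0.131% ± 0.0189 in LP, haemocyte markers 0.0166% ± 0.000709 and 0.00837% ± 0.000593, and follicle cell markers 0.0477% ± 0.00138 and 0.0442% ± 0.00323. Within the haemocyte list Ppn had 88.1 CPM in HP and 15.6 in LP there, while srp had 59.2 and 53.8 and Pxn 18.6 and 14.4. The other haemocyte markers had at most 2.22 CPM in these groups. In the muscle list Tm1 had 478 and 491 and Mhc 194 and 126. The diapause and age-control shares of these lists are those given for the comparison of core and cap. Their part in the difference between lines was not tested.

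Rpt6, an ATPase of the base (X, 21316052 to 21317663), and Prosalpha5 of the alpha ring (2R, 17412767 to 17413769) differed most among canonical genes. Rpt6 had 186, 206 and 179 in diapause, 195, 194 and 197 in reproductive and 177, 199 and 199 in age-control libraries of HP, in CPM. It had 237, 258 and 241 in diapause, 255, 255 and 261 in reproductive and 262, 257 and 269 in age-control libraries of LP. Every LP library lay above every HP library, the highest of which had 206. The differences were 0.37, SE 0.06, adjusted p = 3.7e-05 in diapause, 0.39 in reproductive and 0.45 in age-control ovaries, the smallest p of any member in each state. Prosalpha5 had 134, 160.3 and 145 in diapause, 148, 138 and 151 in reproductive and 122, 151 and 133 in age-control libraries of HP. Its LP levels were 198, 200.5 and 194 in diapause, 208, 199.5 and 204 in reproductive and 174, 172 and 178 in age-control libraries. LP again lay above HP throughout, by 0.43, SE 0.07, adjusted p = 6.4e-05 in diapause, 0.48 in reproductive and 0.37 in age-control ovaries.

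The lid gene Rpn12 followed, with 118, 127 and 116 in diapause, 128, 123 and 118 in reproductive and 116, 139 and 134 in age-control libraries of HP and, in LP, 157, 151 and 143, 160.4, 159 and 164 and 162, 167 and 166 in the same order. It differed by 0.32, 0.39 and 0.35 in diapause, reproductive and age-control ovaries, all called. Prosalpha4 differed by 0.32, 0.33 and 0.21, likewise all called. Among the catalytic subunits Prosbeta5 was called in all 3 states (0.24, 0.34 and 0.21), Prosbeta2 in reproductive and age-control ovaries (0.15 and 0.14; 0.07 in diapause, not called), and Prosbeta1 in age controls alone (0.32, SE 0.07, adjusted p = 0.0012). In diapause and reproductive ovaries Prosbeta1 differed by 0.02 and 0.03, with 95% intervals of −0.13 to 0.17 and −0.12 to 0.18. The calls of Prosbeta2 were lost in 7 of 13 alternatives in reproductive and 6 of 13 in age-control ovaries.

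Of the ubiquitin-binding subunits, Rpn1 and Rpn10 were higher in LP in all 3 states (Rpn1 0.19, 0.15 and 0.27; Rpn10 0.17, 0.21 and 0.32). Rpn13 was called in none, with values of 0.08, 0.02 and 0.10. Rpn13 levels were 135, 153 and 145 in diapause, 145, 145 and 143 in reproductive and 153, 151 and 153 in age-control libraries of HP, in CPM. In LP they were 151, 159.8 and 149 in diapause, 142, 144 and 153 in reproductive and 168, 160.4 and 163 in age-control libraries, overlapping HP in the 12 °C states. The deubiquitinase Rpn11 was higher in LP diapause (0.16) and reproductive ovaries (0.18) and not called in age controls (0.07). Besides Rpn13, Prosalpha7 and Prosbeta4 were called in no state, at 0.08 to 0.13. Of the 18 tested 19S genes 15 were called in each state, and of the 13 tested 20S genes 4 in diapause, 9 in reproductive and 10 in age-control ovaries. Whether core and cap differed in this was not tested. Without HP reproductive replicate 2, and likewise without LP reproductive replicate 1, 16 members in place of 25 were called in reproductive ovaries, again 0 lower.

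**Figure D4:**
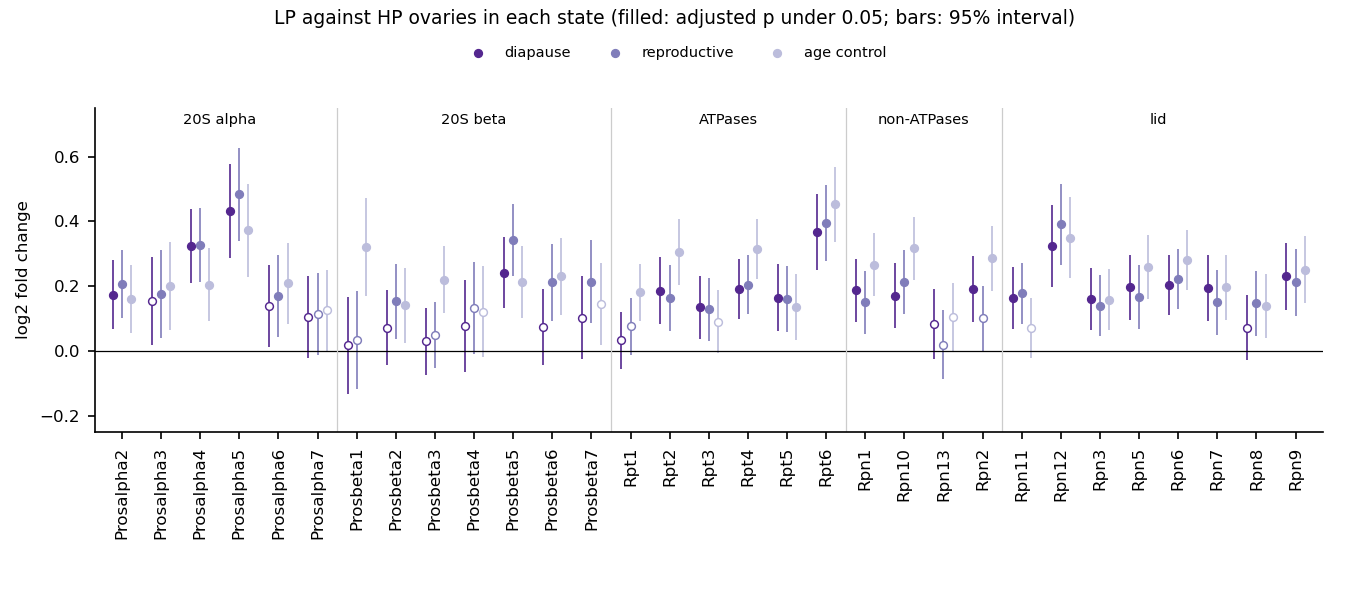
Log2 fold change of LP over HP for each tested canonical gene in diapause, reproductive and age-control ovaries; bars are 95% intervals and filled points have an adjusted p under 0.05. All 31 genes lie above 0 in the 3 states, with Rpt6, Prosalpha5 and Rpn12 among the highest.

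The spread between replicates of a group was measured for each gene. The SD of log2 CPM within groups had a median of 0.05 over the canonical genes (0.03 to 0.10), beside 0.12 over all tested genes and 0.08 over the 1094 tested genes in the canonical genes' range of level. In some libraries the genes lay to the same side. In HP diapause replicate 2, 29 of 31 canonical genes lay above their group mean (median 0.07 in log2), and 2 of 31 did in replicate 1 (median −0.05). In HP age control replicate 2, 27 of 31 lay above (median 0.07), and 2 of 31 did in replicate 1 (median −0.07). Without HP age control replicate 1, 20 members in place of 27 were called higher in LP age controls, and without HP diapause replicate 1, 16 in place of 21 in LP diapause.

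The 16 paralogue copies were rare or absent in these ovaries, and 2 of them, Rpt3R and Rpt6R, passed the filter. Together they had 1200 counts over the 18 libraries, of which Rpt3R, a copy of the ATPase gene Rpt3 (3R, 9754735 to 9756510), had 787. Prosalpha3T had no count in any library, so that its level is bounded only by a floor of 3 counts over the 18 libraries. Prosalpha3T included, 7 copies had under 10 counts in all.

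Rpt3R had 10, 5 and 6 counts in HP diapause, 10, 18 and 8 in HP reproductive and 48, 48 and 28 in HP age-control libraries. In LP it had 46, 38 and 25, 40, 63 and 45 and 79, 166 and 104 in the same order. The age controls were highest in each line, and LP lay above HP in each state. It fell against the age control in HP diapause (−2.12, SE 0.40, adjusted p = 7.6e-05) and HP reproductive ovaries (−1.59, SE 0.36, adjusted p = 0.00071), and in LP diapause (−1.37, SE 0.31, adjusted p = 0.00058) and LP reproductive ovaries (−0.97, SE 0.31, adjusted p = 0.0085). Without LP age control replicate 2 the LP values were −0.996 (adjusted p = 0.0079) and −0.59 (adjusted p = 0.097), so that the call in LP reproductive ovaries rested on that library. Between lines it was higher in LP by 2.18, SE 0.40, adjusted p = 0.00026 in diapause, 2.04 in reproductive and 1.42 in age-control ovaries. Over all 9 libraries of each line it had 606 counts in LP and 181 in HP, a ratio of 3.17 after scaling for depth, or 2.62 without LP age control replicate 2.

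Rpt6R, a copy of the ATPase gene Rpt6, had 0 counts in all 3 HP diapause libraries, 0, 1 and 2 in HP reproductive and 3, 1 and 1 in HP age-control libraries. In LP it had 1, 4 and 5 in diapause, 1, 1 and 3 in reproductive and 17, 27 and 19 in age-control libraries. The LP age controls stood apart from all other groups. Rpt6R passed the low-count filter only through these 3 libraries, so that its calls against them are fixed by the filter and no test is given. In diapause LP had 10 counts against 0 in HP, a ratio of 2.95 with a floor of 3 counts set over the HP group. The floor allows for counting error in HP alone, so the ratio is not a lower bound. Rpn12R, a copy of the lid gene Rpn12, had 0 counts in all 9 HP libraries and 71 in the LP libraries. With a floor of 3 counts set over the HP line the ratio of LP to HP was 22.4. Without LP age control replicate 2, the library with testis genes, LP had 40 counts and the ratio was 14.4. These ratios leave out the counting error and the spread of the LP counts. Rpn12R was counted in every LP library, with 5, 4 and 1 in diapause, 4, 8 and 2 in reproductive and 10, 31 and 6 in age-control libraries.

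LP age control replicate 2 stood apart in these copies. Of the 15 copies with any count, 14 were highest in it. Over the 14 copies other than Rpt3R and Prosalpha1R it had 144 counts, and each of the other 17 libraries had 2 to 33. Rpt4R had 28 counts there and at most 5 elsewhere, Prosbeta2R1 had 16 and at most 3, Prosbeta2R2 had 16 and at most 5, and Prosalpha6T had 9 and at most 2. Rpn13R, with 20 counts in all, had 5 there and at most 3 elsewhere. Of 13 testis marker genes 8 were highest in this library, among them the sperm gene dj with 48 counts, Mst87F, which encodes a sperm tail protein, with 55, and nht, a testis transcription factor subunit at 0 in the other 17 libraries, with 11. The markers' summed share of counts ranged from 0.0150% to 0.0197% in LP and 0.0147% to 0.0169% in HP age-control libraries. Most of it came from twe, a meiotic phosphatase gene that ovaries also express, with group means of 131 CPM in LP and 123 in HP age controls. The part of testis RNA in these copies' counts was not tested.

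**Figure D5:**
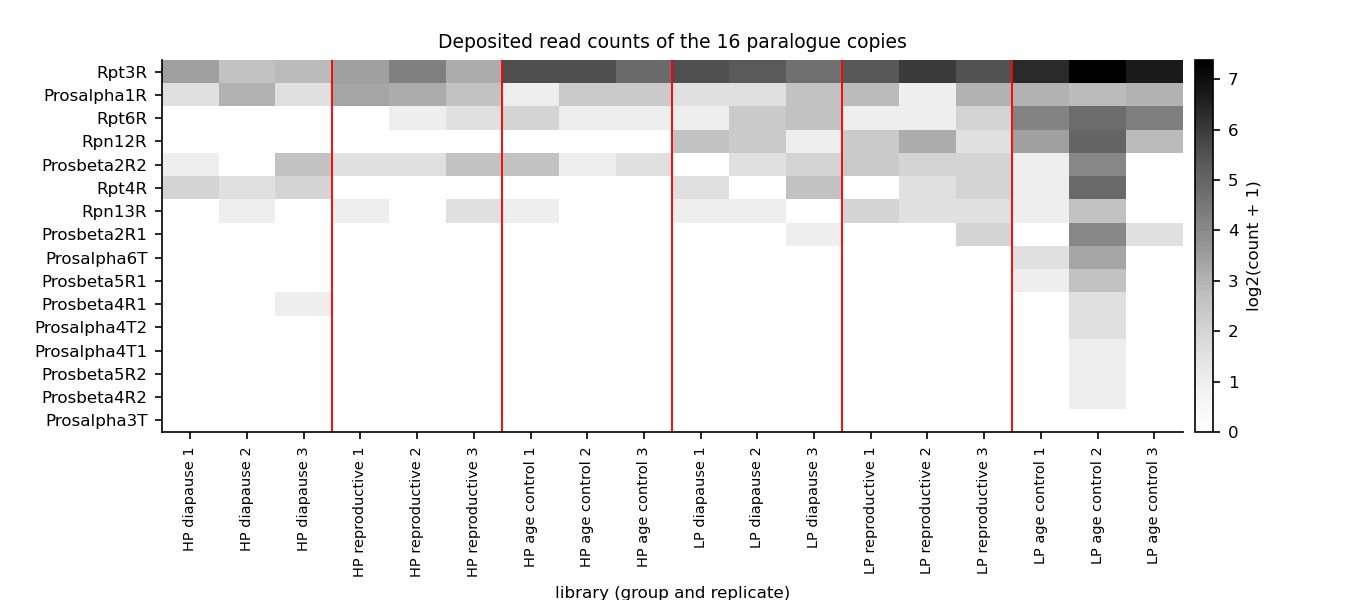
Deposited read counts of the 16 paralogue copies (rows) in the 18 libraries (columns, red lines between groups), shaded on a log2(count + 1) scale from white (0) to black (highest). Rpt3R is the darkest row overall and most so in age controls; LP age control replicate 2 is the darkest column, and Rpn12R is at 0 in all 9 HP libraries.

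Genes that act with the proteasome were followed in 3 lists, assembly factors and regulators (7 of 8 tested, all but Ecm29), ubiquitin genes with the E1 enzyme and shuttle factors (8 of 8), and the Cnc pathway with the segregase (9 of 9). In the fly the transcription factor Cnc, homologous to mammalian Nrf proteins, drives proteasome genes when the proteasome is inhibited. Between diapause and reproductive ovaries 0 genes of the lists were called in either line (0.852% of all genes in HP and 1.45% in LP). Over both lines 3 were, where 9.46% of all genes were called. They are named here after their values were seen, REG (0.12), RpL40 (0.18) and Ubi-p5E (−0.16).

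Against age controls the assembly and regulator list had 3 genes higher in each of the 4 comparisons with TMM. Of all genes 32.2% to 36.6% were called higher and 33.1% to 35.3% lower there. REG, the 11S activator of the core, was higher in HP diapause (0.60, SE 0.05, adjusted p = 5e-09) and LP diapause (0.79, SE 0.05, adjusted p = 6.3e-11), and by 0.47 and 0.68 in reproductive ovaries of HP and LP. Pomp, known in yeast and human cells as a chaperone of core assembly, was higher by 0.40 and 0.32 in HP, and by 0.14 and 0.18 in LP diapause and reproductive ovaries, where total counts gave −0.09 and −0.01. Its LP diapause call was lost in 8 of 13 alternatives. Uch-L5, a deubiquitinase that binds Rpn13 in human cells, was higher by 0.32 and 0.37 in HP and by 0.21 and 0.29 in LP, and was −0.02 in LP diapause with total counts. Usp14, a deubiquitinase that binds Rpn1 in yeast and human cells, fell in HP (−0.16 and −0.13) and in LP diapause (−0.12), and its call in HP reproductive ovaries was lost in 7 of 13 alternatives. PI31, a proteasome regulator, fell in LP (−0.31 and −0.24).

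In the ubiquitin list RpL40 and RpS27A, which encode ubiquitin fused to a ribosomal protein, were higher in all 4 comparisons, at 0.45 and 0.41 in HP diapause and 0.81 and 0.82 in LP diapause. The polyubiquitin gene Ubi-p63E fell in HP (−0.35 and −0.28) and was not called in LP (−0.06 and 0.04). The other polyubiquitin gene, Ubi-p5E, named here after its values were seen, fell in HP diapause (−0.20) and was not called in the other comparisons (−0.03, −0.11 and 0.05). The shuttle factor genes Rad23 and rngo, the latter also a member of the Cnc list, and the E1 gene Uba1 fell in all 4 comparisons. Rad23 stood at −0.70 and −0.58 in HP and −0.59 and −0.47 in LP, in the order diapause and reproductive. Counts for this list were 2 higher and 6 lower in HP diapause, 2 and 4 in HP reproductive, and 2 and 3 in each LP comparison. Of all genes 32.2% to 36.6% were called higher and 33.1% to 35.3% lower in these comparisons.

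In the Cnc list 2 genes were higher and 5 lower in HP diapause, 1 and 3 in HP reproductive, 1 and 5 in LP diapause and 1 and 3 in LP reproductive ovaries. Beside these, 32.2% to 36.6% of all genes were called higher and 33.1% to 35.3% lower. The Cnc partner maf-S fell in each comparison (−0.58, −0.76, −0.40 and −0.31), as did Pngl, an N-glycanase (−0.25, −0.38, −0.40 and −0.52). Keap1, the inhibitor of Cnc, was higher in HP diapause (0.26) and in LP diapause and reproductive ovaries (0.55 and 0.32). With total counts it was 0.12 in HP diapause (adjusted p = 0.29) and 0.13 in LP reproductive ovaries (adjusted p = 0.26), and the HP call was lost in 5 of 13 alternatives. The gene cnc itself, named here after its values were seen, fell in HP and LP diapause (−0.22 and −0.16) and was not called in reproductive ovaries (−0.06 and −0.08). TER94, the segregase that extracts ubiquitinated proteins, was higher in HP alone among the calls (0.14 and 0.27).

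Between lines the lists had calls in both directions. In diapause 1, 4 and 2 genes of the 3 lists were higher in LP and 1, 1 and 2 lower, in the order assembly, ubiquitin and Cnc. Of all genes 17.4% were higher and 15.2% lower there. In age controls 5, 2 and 4 were higher and 1, 3 and 3 lower (all genes 19.9% and 21.9%). The list counts in reproductive ovaries are not given here. The lid gene Sem1 was higher in LP reproductive (0.34) and age-control ovaries (0.38), with 0.14 in diapause, not called. Ubi-p5E, the other polyubiquitin gene, was higher in LP by 1.01 in diapause, 1.00 in reproductive and 0.92 in age-control ovaries, and REG was lower in LP (−0.21, −0.19 and −0.40). Usp14 was higher in LP in all 3 states (0.40, 0.41 and 0.36). Genes named in this paragraph were chosen after their values were seen.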

How the data were processed

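RNA was measured in 18 ovary libraries, 3 in each of 6 groups. Read counts per gene were deposited by the authors as whole numbers, made with STAR and featureCounts after Trimmomatic, per the submitters' processing notes, which also list DESeq2 and state no version. No source used here gives the genome build, the strand setting or the treatment of multi-mapping reads. Symbols and annotation came from BDGP6.54 by gene identifier. Genes were filtered with filterByExpr (9037 kept), scaled by TMM and fitted in edgeR 4.0.16 (R 4.3.3) with a robust quasi-likelihood model over all 18 libraries, 1 mean per group and 12 residual degrees of freedom. P-values were adjusted by Benjamini-Hochberg over all tested genes, with a threshold of 0.05. The pipeline was tested on simulated data. Replicates are numbered as biological replicates in the labels. All 17611 rows name a gene. Totals of 14352846 to 21343992 counts limit precision mainly for the paralogue copies, and floors of 3 counts cover only the counting error of a sum at 0.

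Named without exception were the catalytic subunits Prosbeta1, Prosbeta2 and Prosbeta5 with Rpn1, Rpn6, Rpn10, Rpn11 and Rpn13. Added were up to 3 called members with the largest increase and 3 with the largest decrease per comparison, the highest and lowest level per length in each subcomplex, each copy with at least 10 counts, and up to 4 called genes per list. The members and lists were chosen with earlier results of these data known. Alternatives were DESeq2 1.42.0 as a test, DESeq2 size factors, total counts, no filter, only the groups compared, a replicate block and leaving out each replicate. The removal of LP diapause replicate 2 with LP age control replicate 2 was added after seeing the data.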

Additional observations from a re-analysis of the deposited data

Results flagged for a closer look

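The following changes against age controls differed between the lines by edgeR's interaction term, given as the LP minus the HP change in log2 with an adjusted p over all genes. In diapause Prosbeta1 differed by −0.30 (SE 0.10, adjusted p = 0.043), its higher level at 12 °C being smaller in LP. The core assembly chaperone gene Pomp differed in the same direction by −0.26 (adjusted p = 0.030). These calls were lost in 10 of 19 alternatives each.

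Ubiquitin genes differed the other way. Ubi-p63E differed by 0.29 in diapause (adjusted p = 0.025) and 0.32 in reproductive ovaries (adjusted p = 0.015). RpL40 differed by 0.36 (adjusted p = 0.030) and 0.51 (adjusted p = 0.0034), and RpS27A by 0.41 (adjusted p = 0.019) and 0.50 (adjusted p = 0.0056), in the same order. The diapause calls of RpL40 and Ubi-p63E were lost in 8 of 19 alternatives each, and that of RpS27A in 2 of 19. In reproductive ovaries alone among the calls, maf-S differed by 0.45 (adjusted p = 0.011) and TER94 by −0.22 (adjusted p = 0.047), a call that was lost in 13 of 19 alternatives.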

How the results depend on the processing

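Of 59 calls of named members, 57 stayed with DESeq2 size factors, 54 with total counts, 51 without the low-count filter and 58 with DESeq2. The calls of Rpt6R are among the 59, and since it passed the filter only through the LP age controls, their staying is no support. The higher LP counts had 0 members lower under every alternative. Total counts gave 25 members in place of 16 called in LP diapause against age controls, turned the sign of 6 called members there (Rpt1, Rpt3, Rpt4, Prosalpha5, Prosbeta1 and Prosbeta6), 2 of which, Rpt1 and Rpt3, were then called lower, and gave reversed values for Prosbeta1 (−0.062), Pomp (−0.093) and Uch-L5 (−0.024) there and Pomp in LP reproductive ovaries (−0.0097). Under that scaling the median change of all genes was lower as well, as given before. The difference between lines in diapause against age controls had 1 member called, 2 with DESeq2 size factors, 6 with total counts, 3 with DESeq2, 0 with only the groups compared, 0 without LP diapause replicate 2 and LP age control replicate 2 together, and 0 to 3 when 1 replicate was left out. In reproductive ovaries this difference had 0 called, 6 with total counts, 3 with DESeq2 and 0 to 2 with 1 replicate left out (2 without HP age control replicate 2). Diapause against reproductive ovaries over both lines had 0 called, 2 with total counts, 2 with DESeq2, 2 with only the groups compared and 0 to 1 with 1 replicate left out (Rpn5, without LP diapause replicate 2). Leaving out 1 replicate gave 16 to 20 members for LP against HP in reproductive ovaries (23 without the 2 LP libraries named before) and 10 to 16 for HP reproductive ovaries against age controls. The causes of these changes in calls were not tested. A replicate block, with the replicate number as a term, gave 1 call (Prosbeta1) for the reproductive line difference in place of 0 and kept 58 of 59 named calls. Over all tested genes, deviations of same-numbered libraries had r over 0.1 in 2 of 18 pairs (from −0.14 to 0.16), beside −0.19 to 0.19 in other pairs. Best matches carried the library's own number in 7 of 18 libraries. With 3 libraries a group this check is weak and cannot settle whether the numbers pair the samples. Canonical genes lay mostly above their group mean in replicate 2 of HP diapause and HP age control (29 and 27 of 31). In replicate 1 of these groups 2 of 31 did. In HP reproductive ovaries 21 of 31 lay above in replicate 1 and 13 in replicate 2. Depth limits the paralogue copies, of which 10 had under 10 counts in every library.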
